A study of Mus musculus with 163 samples.

Results

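The immediate early genes Fos, Fosb, Jun, Junb, Jund, Egr1, Nr4a1, Ier2, Dusp1 and Zfp36, were followed in single hair cells of the mouse cochlea at postnatal day 7. They were chosen by name as genes of the early response to stimulation, with earlier results of these data known. They are 10 of the 55291 genes of the deposited count table. All 10 had counts in each of the 4 groups of cells. The cells were 43 control outer hair cells (OHCs), 56 mutant OHCs, 38 control inner hair cells (IHCs) and 26 mutant IHCs. Control cells had the genotype Atoh1P2A-Tdtomato/+, in which the hair cell gene Atoh1 drives the red protein tdTomato. Mutant cells were labelled Atoh1P2A-Cre/P2A-Tdtomato/+; Rbm24flox/flox, so that Cre made from Atoh1 deletes Rbm24, which encodes an RNA-binding splicing regulator, in the cells that express Atoh1. All groups share the tdTomato allele, whereas Cre and a further modified Atoh1 allele come only with the loss of Rbm24, and their parts cannot be told apart. Cells were released with papain for 20 min at 37 °C and with protease and dispase for 20 min at 25 °C, dissociated with glass pipettes, picked one by one and amplified with Smart-Seq HT, a full-length cDNA method.

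Immediate early genes are transcribed within minutes of a stimulus from factors that are already present in the cell, without new protein synthesis. Growth factor, calcium and stress signals reach them through mitogen-activated protein kinases (MAPKs), the serum response factor with its Elk partners, and CREB. Their products include the AP-1 transcription factors of the Fos and Jun families, and proteins that shut the response off, such as phosphatases and factors that degrade messenger RNA. Enzymatic dissociation of a tissue is itself known to induce them, and every group here went through it. Cells that were never dissociated were not analysed here.

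No label names the animal of a cell, and none says what made a cell an OHC or an IHC at picking. Each group is therefore 1 sample, no test was possible, and cells are described by their spread. Levels are given in CPM, the counts summed over a group and scaled to its total, and every interval printed covers counting error only. Total counts per cell ran from 5.47e+06 to 1.81e+07, with medians of 9.09e+06 in control OHCs, 1.28e+07 in mutant OHCs, 8.67e+06 in control IHCs and 1.42e+07 in mutant IHCs. Rbm24 stood at 315 CPM in control and 0.212 CPM in mutant OHCs, and at 431 and 1.51 CPM in control and mutant IHCs. The summed level of 10 OHC markers had a median of 8436 CPM (1066 to 29382) in control OHCs against 1213 CPM (576 to 1922) in control IHCs. That of 10 IHC markers had a median of 4432 CPM (331 to 10494) in control OHCs against 13524 CPM (6695 to 19263) in control IHCs. Both pairs of ranges overlapped. In mutant OHCs the OHC marker sum had a median of 1592 CPM, with a range of 439 to 3489 CPM that overlapped the 576 to 1922 CPM of control IHCs. Sex and a further split also moved with genotype. Cells with Y-linked transcripts numbered 32 of 43 in control OHCs, 16 of 56 in mutant OHCs, 26 of 38 in control IHCs and 7 of 26 in mutant IHCs. Gm15772, a predicted gene that was at or below 22.1 CPM in some cells and at or above 61.4 CPM in the others, was low in 25, 16, 23 and 7 cells of the same groups. Results are therefore also given within these sets. Summed markers of other cell types moved with genotype as well, in median cells: 8 mesenchymal markers from 207 to 35.4 CPM in OHCs and 164 to 20.1 CPM in IHCs, 10 immune markers from 106 to 247 and 125 to 241 CPM, and 7 glial markers from 112 to 310.1 and 135 to 441 CPM. Their part in the results was not tested, and 1 to 3 of the 8, 10 or 7 genes of such a list reached 1 CPM in any group. The immune marker Cx3cr1 had 0 counts in every group.

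The regulatory sequence just upstream of the genes is shown here as background, and its relation to their levels was not tested. RefSeq promoter windows (GRCm38.p6) matched 8 of the 10 members, all but Ier2 and Egr1, and the 250 bases before the start are used. The RefSeq start can differ from that of the gene annotation. The window of Jund, chr8:70697489-70697738, lies apart from its annotated gene, which begins at 70698949. Capitals mark the CREB core TGACG on either strand (which includes the full site TGACGTCA), the AP-1 variant TGACATCA, and the CArG box bound by serum response factor. Fos is at chr12:85473640-85473889 on the + strand, Jun at chr4:95052223-95052472 on the - strand, Dusp1 at chr17:26508473-26508722 on the - strand and Zfp36 at chr7:28379229-28379478 on the - strand.
Fos: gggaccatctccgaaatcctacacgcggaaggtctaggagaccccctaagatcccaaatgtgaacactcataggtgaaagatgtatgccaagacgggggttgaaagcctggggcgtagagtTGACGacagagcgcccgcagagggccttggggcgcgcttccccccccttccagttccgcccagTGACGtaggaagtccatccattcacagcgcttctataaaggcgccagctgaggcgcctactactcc
Jun: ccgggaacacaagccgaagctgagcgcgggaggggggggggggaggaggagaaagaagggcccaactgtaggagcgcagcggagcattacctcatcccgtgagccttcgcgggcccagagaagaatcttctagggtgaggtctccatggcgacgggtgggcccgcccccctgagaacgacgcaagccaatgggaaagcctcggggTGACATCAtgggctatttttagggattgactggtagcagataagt
Dusp1: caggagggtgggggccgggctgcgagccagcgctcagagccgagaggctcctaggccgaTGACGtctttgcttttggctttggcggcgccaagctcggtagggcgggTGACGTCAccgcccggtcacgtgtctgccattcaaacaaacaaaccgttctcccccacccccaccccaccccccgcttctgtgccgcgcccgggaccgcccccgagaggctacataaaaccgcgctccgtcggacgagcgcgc
Zfp36: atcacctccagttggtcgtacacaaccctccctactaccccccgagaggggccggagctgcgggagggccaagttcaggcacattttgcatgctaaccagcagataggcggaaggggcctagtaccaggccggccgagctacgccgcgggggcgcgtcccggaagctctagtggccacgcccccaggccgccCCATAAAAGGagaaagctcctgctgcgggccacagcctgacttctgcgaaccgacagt

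The core TGACG was present in 5 of the 8 member windows, in Fos, Fosb, Junb, Nr4a1 and Dusp1, against 17.8% of all 32851 windows. Its palindromic full form TGACGTCA was found in Dusp1 alone among the members, and in 1.55% of all windows. The AP-1 variant TGACATCA occurred in the window of Jun and in 2.93% of all windows, while the common AP-1 site TGANTCA was in none of the 8 and in 6.75% of all. A CArG box lay 48 bases before the start of Zfp36 and occurred in 1.47% of all windows. The Egr motif GCGNGGGCG was found in Fosb, Nr4a1 and Zfp36 and in 4.70% of all windows, and the TATA motif TATAAA, 27 bases before the start, in Fos and in 12.4% of all. These are letter matches in a short window and say nothing of binding, and sites outside the window were not searched.

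Fos (chr12:85473890-85477273, + strand, GENCODE annotation of GRCm38), the AP-1 subunit that pairs with the Jun proteins, was more frequent in control IHCs than in control OHCs. It reached 10 CPM in 28 of 38 control IHCs (73.7%, exact binomial 95% interval 56.9 to 86.6%) but in only 7 of 43 control OHCs (16.3%, 6.81 to 30.7%). Single control OHCs ran from 0 to 350.2 CPM with a median of 0.106, and single control IHCs from 0 to 759.8 CPM with a median of 101. Mutant OHCs ran from 0 to 151 CPM with a median of 0, and mutant IHCs from 0 to 849.9 CPM with a median of 0.540. The ranges overlapped, but the median control IHC was well above 10 CPM and the median cell of every other group was below 1 CPM. Among the cells at 10 CPM or more, the median level was 209.5 CPM in control OHCs and 129 CPM in control IHCs (4 of the 7 such control OHCs held 3 or more of 16 supporting cell markers at 10 CPM, and the other 3 were at 39.9, 63.1 and 151 CPM). Pooled, Fos was at 29.9 CPM in control OHCs and 142 CPM in control IHCs, a log2 ratio of -2.25 (-2.28 to -2.22).

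Fosb (chr7:19302696-19310051, - strand), a close relative of Fos with the same partners, followed it at a lower level. Single cells ran from 0 to 57.4 CPM in control OHCs, 43.0 in mutant OHCs, 71.3 in control IHCs and 67.8 in mutant IHCs, with a median of 3.28 in control IHCs and of 0 in the other groups. It passed 10 CPM in 16 of 38 control IHCs against 4 of 43 control OHCs, 3 of 56 mutant OHCs and 4 of 26 mutant IHCs. Fosb was thus most frequent in control IHCs too, with overlapping ranges. Its OHC to IHC log2 ratio was -2.11 (-2.21 to -2.02) in controls and -2.17 (-2.28 to -2.07) in mutants.

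**Figure D1:**
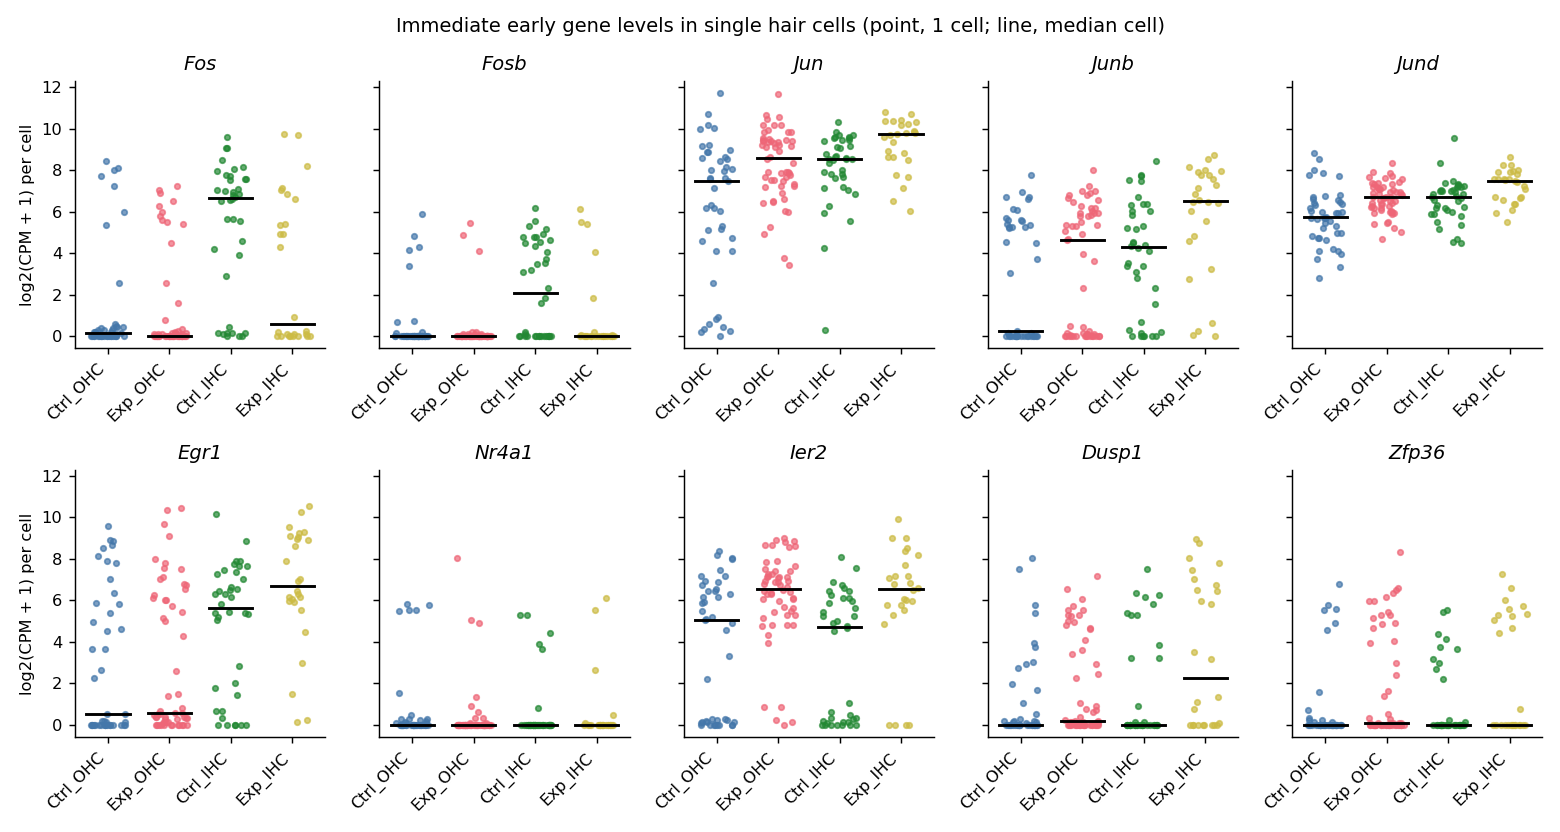
Levels of the 10 genes in single cells, as log2(CPM + 1), with each point 1 cell and each black line the median cell of its group. Fos, Fosb, Nr4a1, Dusp1 and Zfp36 split into cells near 0 and cells well above it, whereas Jund is above 0 in every cell.

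Most of the Fos of control OHCs came from a handful of cells. Of the 43 control OHCs, 5 (11.6%) held 3 or more of 16 supporting cell markers at 10 CPM, and these 5 carried 80.2% of the group's Fos counts, 78.2% of Fosb, 82.1% of Nr4a1, 76.5% of Dusp1 and 76.2% of Zfp36. For Jun, Jund, Egr1, Ier2 and Junb the same 5 cells carried 22.7%, 17.4%, 29.8%, 32.9% and 37.6%. Fos pooled to 217 CPM in the 5 cells and to 6.65 CPM in the other 38, of which 3 reached 10 CPM. In control IHCs Fos differed less between such cells, at 159.6 CPM in 7 cells with those markers and 138 CPM in the other 31. Those 7 cells, 18.4% of the group, did carry 54.3% of its Dusp1 counts (46.9 against 8.70 CPM in the other 31) and 39.4% of its Nr4a1 counts. Without the marker-bearing cells, the control OHC to IHC log2 ratio of Fos moved from -2.25 to -4.38 and that of Fosb from -2.11 to -4.16. In other sets of cells the difference was smaller, with Fos at -1.35 and Fosb at -0.26 in cells with Xist, and at -0.96 and -0.79 in cells high in Gm15772. Over single control OHCs the summed supporting cell markers ranged from 0 to 517 CPM (median 39.8), with Epyc at 0 counts and 12 of the 16 markers at 1 CPM or more in the pool. Whether those transcripts belong to the picked cell or to material attached to it was not tested.

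Jun, the main partner of Fos, was the highest member per kilobase of exon in all 4 groups, at 117 and 169 CPM per kb in control and mutant OHCs and 130.3 and 255 CPM per kb in control and mutant IHCs. Single cells ran from 0 to 3331 CPM with a median of 178 in control OHCs, and from 9.87 to 3217 CPM with a median of 384 in mutant OHCs. In control IHCs they ran from 0.242 to 1267 CPM with a median of 371, and in mutant IHCs from 63.9 to 1792 CPM with a median of 845. The groups overlapped and differed at the lower end, where 34 of 43 control OHCs but 55 of 56 mutant OHCs held 10 CPM or more. Jun, at chr4:95049034-95052222 on the - strand, shares 7.28% of its exon bases with the opposite-strand transcript Junos, which stood at 2.16 CPM at most.

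Jund, the Jun family member that is expressed without stimulation in most cells, was the most even of the 10. It ran from 6.02 to 451 CPM (median 51.7) in control OHCs, 24.5 to 328 (103) in mutant OHCs, 21.5 to 752 (104) in control IHCs and 43.7 to 389 (179) in mutant IHCs. No cell lacked it, and all but 2 control OHCs held 10 CPM or more. Of its exon bases 52.6% are shared with the opposite-strand Gm11175, which had 0 counts in every group. With the strand setting of the counting unknown, so is whether reads of the shared bases were counted for Jund. The level of Jund per kilobase, given below, takes all its exon bases. Junb, an AP-1 subunit that activates less strongly than Jun, had median cells at 0.202, 24.2, 18.7 and 90.6 CPM in control OHCs, mutant OHCs, control IHCs and mutant IHCs, and its highest cells were at 218, 253, 347 and 418 CPM. It shares 7.52% of its exon bases with Prdx2, an abundant gene on the other strand at 713 to 921 CPM, and the strand setting of the counting is not given in the sources used here.

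Per kilobase the order of pooled levels was similar in the 4 groups. Jun came first, Jund and Ier2 shared the next places with Fos in control IHCs, Egr1 and Junb followed, and Fosb or Nr4a1 came last. Fos ranked 3 in control IHCs (60.5 CPM per kb) and 6 in each other group (12.7 in control OHCs, 6.77 in mutant OHCs and 42.4 in mutant IHCs). Neighbours in this order, such as Junb at 12.9 and Fos at 12.7 CPM per kb in control OHCs or Egr1 at 22.6 and Junb at 22.1 in control IHCs, lay far within the spread of single cells.

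Egr1, a zinc finger factor induced with Fos, had median cells at 0.432 CPM in control and 0.475 CPM in mutant OHCs, against 49.2 and 103 CPM in control and mutant IHCs. Its highest cells reached 758, 1372, 1154 and 1469.7 CPM in that order, so the groups overlapped while the median OHC of either genotype was below 1 CPM. It passed 10 CPM in 41.9% of control OHCs, 39.3% of mutant OHCs, 65.8% of control IHCs and 84.6% of mutant IHCs. Nr4a1, an orphan nuclear receptor, was rare everywhere, with a median of 0 in all groups and 5, 3, 5 and 2 cells at 10 CPM or more. A single mutant OHC at 263 CPM held 83.0% of that group's Nr4a1 counts.

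**Figure D2:**
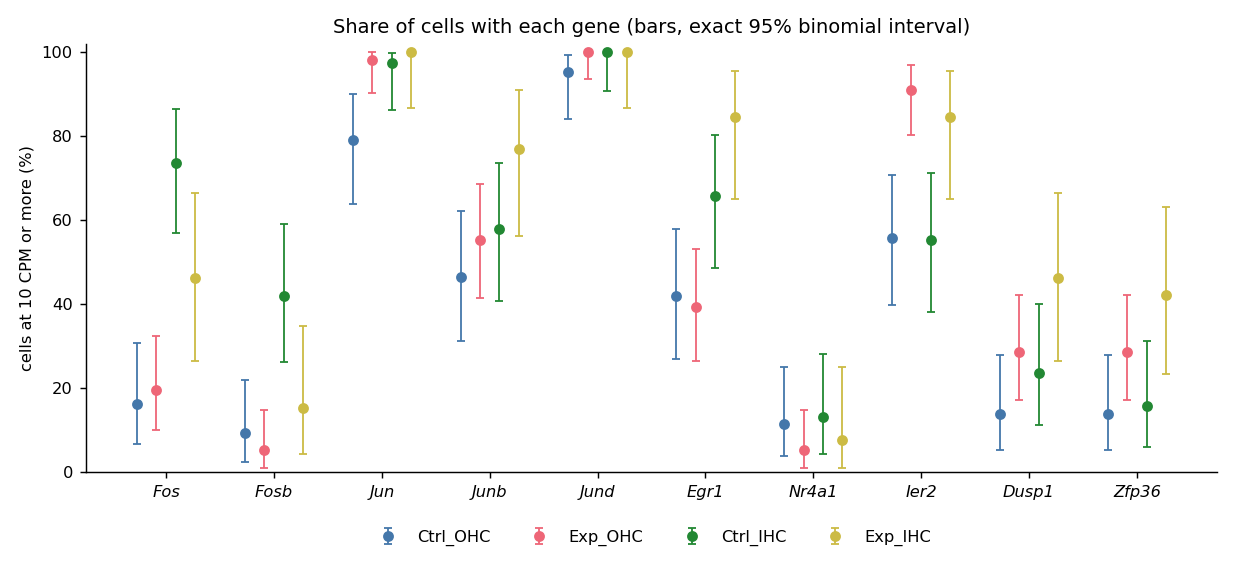
Share of cells at 10 CPM or more for each gene and group, with exact 95% binomial intervals. Fos lies at 73.7% in control IHCs and at 46.2% or less in the other 3 groups, and Jund at 95.3% or more in all 4.

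Over all cells, loss of Rbm24 went with higher pooled levels of 8 of the 10 members in OHCs and of the same 8 in IHCs, while Fos and Fosb were lower in both. Of all genes at 1 CPM or more, 53.2% were higher in mutant OHCs and 55.9% in mutant IHCs. Some of these signs rested on few cells. In OHCs the log2 ratio of Nr4a1, 0.41, became -1.79 without the highest cell of each group. That of Dusp1, 0.16, became -0.04 with the mean of the cells. Fos and Fosb turned to 0.88 and 0.80 without marker-bearing cells. In OHCs, 2 members, Ier2 and Zfp36, were 2-fold or more higher in mutants, where 18.4% of the 14588 genes at 1 CPM or more were. No member was 2-fold lower, against 13.1% of those genes. In IHCs, 5 members, Junb, Egr1, Ier2, Dusp1 and Zfp36, were 2-fold or more higher, against 18.8% of 14557 genes, and none 2-fold lower, against 11.7%. The share of members past 2-fold in OHCs lay near the background. The median log2 ratio of the 10 was 0.42 in OHCs and 1.14 in IHCs, beside 0.06 and 0.11 over all genes.

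Ier2 (chr8:84661331-84662852, - strand), a small nuclear protein of the early response, ran from 0 to 331 CPM (median 32.6) in control OHCs and from 0 to 512 CPM (median 93.8) in mutant OHCs. In IHCs it ran from 0 to 269 CPM (median 25.5) in controls and from 0 to 972 CPM (median 92.5) in mutants. Ranges overlapped, and the median mutant cell of both types was above the median control cell. It passed 10 CPM in 55.8% (39.9 to 70.9%) of control and 91.1% (80.4 to 97.0%) of mutant OHCs, and in 55.3% (38.3 to 71.4%) of control and 84.6% (65.1 to 95.6%) of mutant IHCs. The log2 ratio was 1.20 (1.18 to 1.22) in OHCs and 1.96 (1.94 to 1.99) in IHCs. It was above 0 under each of the 10 other ways of summing or choosing cells, at 0.56 to 1.52 in OHCs and 0.49 to 2.83 in IHCs.

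Zfp36 (chr7:28376784-28380253, - strand) encodes tristetraprolin, which binds AU-rich messenger RNAs and hastens their decay. Its cells ran from 0 to 108 CPM in control OHCs, 315 in mutant OHCs, 44.7 in control IHCs and 152 in mutant IHCs, with no median above 0.0609. Most cells of every group were thus below 10 CPM, and the share at 10 CPM was 14.0% and 28.6% in control and mutant OHCs and 15.8% and 42.3% in control and mutant IHCs. The log2 ratio was 1.41 (1.35 to 1.47) in OHCs and 2.27 (2.19 to 2.34) in IHCs. In OHCs with Y-linked transcripts it was -0.41, and in OHCs with Xist 3.39.

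Dusp1 (chr17:26505590-26562128, - strand), a phosphatase that inactivates MAPKs, had a higher genotype ratio in IHCs than in OHCs over all cells, an order that turned in cells low in Gm15772. Single cells ran from 0 to 262 CPM in control OHCs, 143 in mutant OHCs, 182 in control IHCs and 489.6 in mutant IHCs, with medians of 0, 0.142, 0 and 4.79. The highest cells and the largest share of positive cells were those of mutant IHCs (46.2% at 10 CPM, against 14.0%, 28.6% and 23.7% in the other groups as listed). Its log2 ratio was 0.16 (0.11 to 0.21) in OHCs and 2.37 (2.33 to 2.41) in IHCs, a difference of -2.21 that was not tested. A single cell held 49.0% of the Dusp1 counts of control OHCs. With the 5 marker-bearing control OHCs and the 6 such mutant OHCs left out, the OHC ratio became 2.00, and the IHC ratio without such cells 3.26. In cells low in Gm15772 the OHC ratio was 3.38 and the IHC ratio 2.13. Among the mutant IHCs low in Gm15772 a single cell was at 427 CPM, and the median cell was at 0.0735 CPM. Over all cells Egr1 had log2 ratios of 0.39 (0.38 to 0.41) in OHCs and 1.65 (1.63 to 1.66) in IHCs, and in cells low in Gm15772 2.42 and 2.31. Junb stood at 0.45 (0.42 to 0.48) and 1.31 (1.28 to 1.33), Jun at 0.53 (0.52 to 0.54) and 0.97 (0.96 to 0.98), and Jund at 0.42 (0.40 to 0.44) and 0.47 (0.46 to 0.49).

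**Figure D3:**
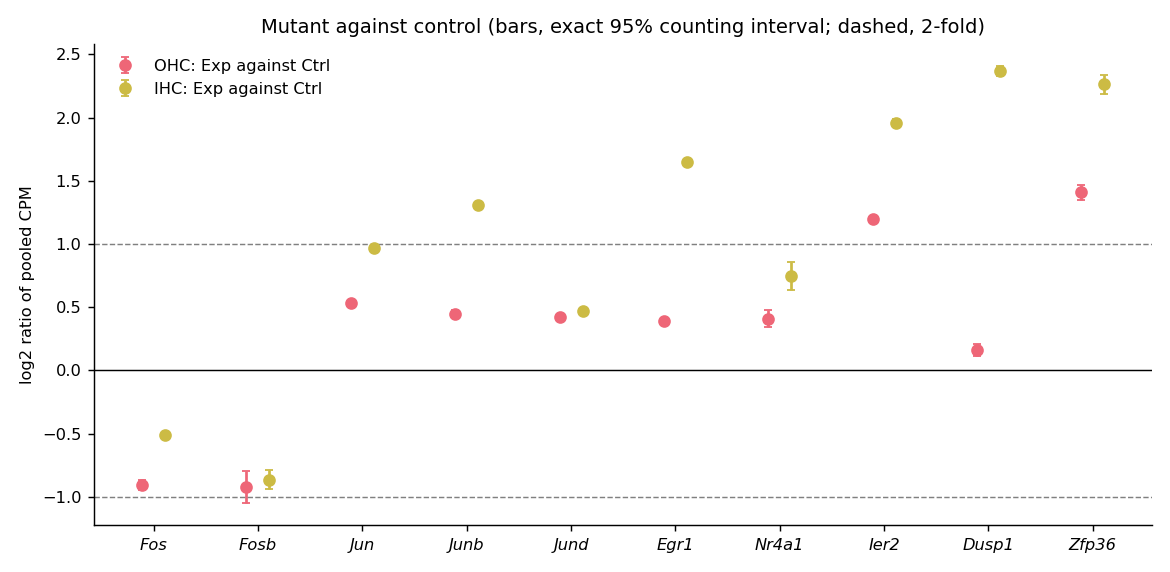
Log2 ratio of pooled CPM, mutant against control, for OHCs and IHCs, with exact 95% counting intervals and dashed lines at 2-fold. Over all cells the genotype ratio has the same sign in both cell types for all 10 genes. It runs from -0.92 for Fosb to 1.41 for Zfp36 in OHCs, and from -0.87 for Fosb to 2.37 for Dusp1 in IHCs. In OHCs only Junb and Ier2 kept their sign under all 10 other ways of summing or choosing cells.

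Fos was at 15.9 CPM in mutant OHCs, a log2 ratio of -0.91 (-0.95 to -0.87), and at 99.8 CPM in mutant IHCs, a log2 ratio of -0.51 (-0.53 to -0.49). In OHCs this lower value rested on the marker-bearing control cells, since without such cells Fos pooled to 6.65 CPM in controls and 12.3 CPM in mutants, a log2 ratio of 0.88. Fosb likewise moved from -0.92 to 0.80. In IHCs the same step gave -0.31 for Fos and -0.70 for Fosb, and what differed was the number of positive cells: 12 of 26 mutant IHCs (46.2%, 26.6 to 66.6%) held Fos at 10 CPM, against 28 of 38 controls, with median positive cells at 105 and 129 CPM. A single mutant IHC carried 36.1% of that group's Fos counts. The intervals of the shares overlapped. Within IHCs with Xist, 9 of 19 mutant and 6 of 12 control cells held Fos, and within IHCs with Y-linked transcripts 3 of 7 and 22 of 26. The pooled log2 ratio of Fos in IHCs was 0.47 with Xist, -0.06 with Y-linked transcripts, 0.02 in low and -0.42 in high Gm15772 cells.

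Across the sets by sex and Gm15772, the median ratio of the members changed sign in OHCs and kept it in IHCs. In OHCs low in Gm15772, where all 16 mutant cells were also the cells with Y-linked transcripts, all 10 members were higher in mutants and 5 were past 2-fold, with a median log2 ratio of 1.01. Of all genes at 1 CPM or more in those cells, 55.8% were higher and 26.3% past 2-fold, with a median of 0.16. In OHCs high in Gm15772, with 40 mutant and 18 control cells, 7 of the 10 were lower in mutants, 1 was 2-fold higher and the median was -0.42, where 49.9% of all genes were lower, 17.6% were 2-fold higher and the median was 0.00. Jun lay on both sides, at 143 CPM in controls and 559 CPM in mutants among the low cells (log2 ratio 1.96) and at 752 and 528 CPM among the high cells (-0.51). For Jun the pooled level in control OHCs thus differed more between the sets than that in mutant OHCs. Median control and mutant cells were at 70.9 and 615 CPM in the low set and at 301 and 304 CPM in the high set. A single control OHC of the high set stood at 3331 CPM. Egr1 likewise had log2 ratios of 2.42 among low and -0.83 among high cells, and Dusp1 of 3.38 and -1.77. For Dusp1 the high control OHCs included cells with supporting cell markers at 181 and 262 CPM. For OHCs with Y-linked transcripts the median was 0.66, with 7 members higher (0.12 and 55.2% over all genes), and for OHCs with Xist it was -0.18, with 5 higher and 5 lower (0.06 and 52.2% higher over all genes). In IHCs the median stayed above 0 in each set, at 0.51 with Y-linked transcripts, 1.76 with Xist, 0.77 in low and 1.07 in high Gm15772 cells, beside 0.14, 0.10, 0.15 and 0.08 over all genes. These sets are not independent. The 7 mutant IHCs with Y-linked transcripts were also the ones low in Gm15772, and the 19 with Xist the ones high in it. With Y-linked transcripts 2 members were 2-fold higher in mutant IHCs, against 24.7% of genes. Jun, Junb, Egr1, Ier2, Dusp1 and Zfp36 were higher in mutant IHCs under all 10 alternatives. For Dusp1 the 7 mutant IHCs with Y-linked transcripts pooled to 75.1 CPM. A single one of them was at 427 CPM, and their median was 0.0735 CPM. How far sex, Gm15772 class or the animals behind them enter the genotype ratios was not tested.

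**Figure D4:**
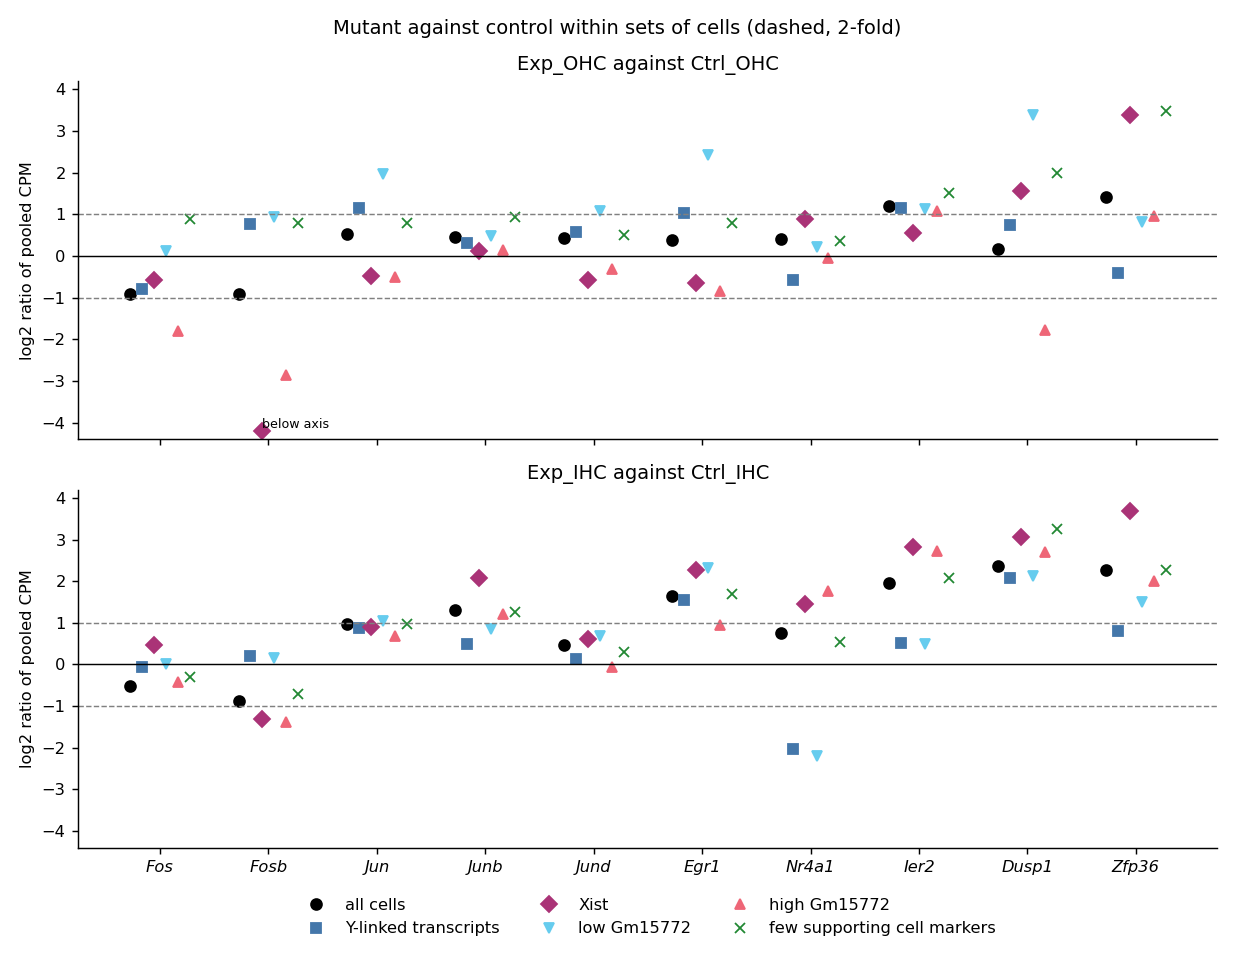
Log2 ratio of pooled CPM, mutant against control, in all cells, in cells with Y-linked transcripts, with Xist, with low or high Gm15772, and without cells that held 3 or more supporting cell markers, for OHCs (top) and IHCs (bottom). OHC points for Jun run from -0.51 to 1.96, whereas IHC points for Dusp1 all lie above 2, and the OHC Fosb point for Xist cells is at -8.83, below the axis. The IHC Dusp1 points for Y-linked and low Gm15772 cells share the same 7 mutant cells. Of these a single cell was at 427 CPM, and the median was 0.0735 CPM.

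Between the cell types, 7 of 10 members were lower in control OHCs than in control IHCs, as were 6923 of all 14445 genes at 1 CPM or more. Of the members 2 (20.0%), Fos and Fosb, were 2-fold or more lower, where 13.4% of those genes were. None was 2-fold higher, against 15.3% of genes, and the median log2 ratio was -0.27 (0.04 over all genes). In mutants 9 of 10 were lower in OHCs, as were 7370 of all 14769 genes at 1 CPM or more. Of the members 5 (50.0%), Fos, Fosb, Junb, Egr1 and Dusp1, were 2-fold or more lower, where 14.5% of those genes were. None was 2-fold higher, against 14.0% of genes. The median was -1.09 (0.00 over all genes). These comparisons share their groups with those of genotype and are given beside them. In mutants the 10 alternatives gave medians from -1.38 to -0.98. In controls they ran from -1.21 in cells low in Gm15772 to 0.46 in cells with Xist.

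Within a cell, the median number of members at 10 CPM or more was 3 in control OHCs, 4 in mutant OHCs, 6 in control IHCs and 6.5 in mutant IHCs. There were 2 control OHCs with all 10, and both also held supporting cell markers (8 and 10 of the 16). A further control OHC held 9 members and 3 of the markers. In 3 control IHCs, with 0, 7 and 8 of the markers, and in 2 mutant IHCs, with 1 and 3, 9 members were held, and no mutant OHC held more than 8. The summed level of the 10 ran from 9.84 to 4372 CPM (median 304) in control OHCs, 208 to 5617 (757) in mutant OHCs, 22.6 to 3224 (711) in control IHCs and 213 to 4951 (1462) in mutant IHCs. The lowest mutant cells of both types thus lay above the lowest control cells, with overlapping ranges.

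Across the cells of a group, members mostly varied in the same direction but weakly. The median Spearman rho over the 45 pairs was 0.30 in control OHCs, 0.13 in mutant OHCs, 0.23 in control IHCs and 0.28 in mutant IHCs, as a description over cells. Positive values were found for 44, 36, 44 and 36 of the 45 pairs. Jun with Jund stood at 0.56, 0.55 and 0.64 in control OHCs, control IHCs and mutant IHCs, and at 0.24 in mutant OHCs. Fos went with Zfp36 in control OHCs (0.58), with Egr1 in mutant OHCs (0.57) and mutant IHCs (0.64), and with Fosb in control IHCs (0.64). The 4 control OHCs with both Fos and Zfp36 at 10 CPM were all among the 5 with 3 or more supporting cell markers. No rho was computed without such cells. All 11 mutant OHCs with Fos at 10 CPM also held Egr1 at that level, where 22 of all 56 mutant OHCs did. So did all 12 such mutant IHCs, where 22 of all 26 mutant IHCs did. Egr1 was not alone in this. The same 11 OHCs all held Ier2 and Jund, and the same 12 IHCs all held Jun, Junb and Jund. The highest rho was that of Jun with Egr1 in mutant IHCs, at 0.77 over 26 cells.

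**Figure D5:**
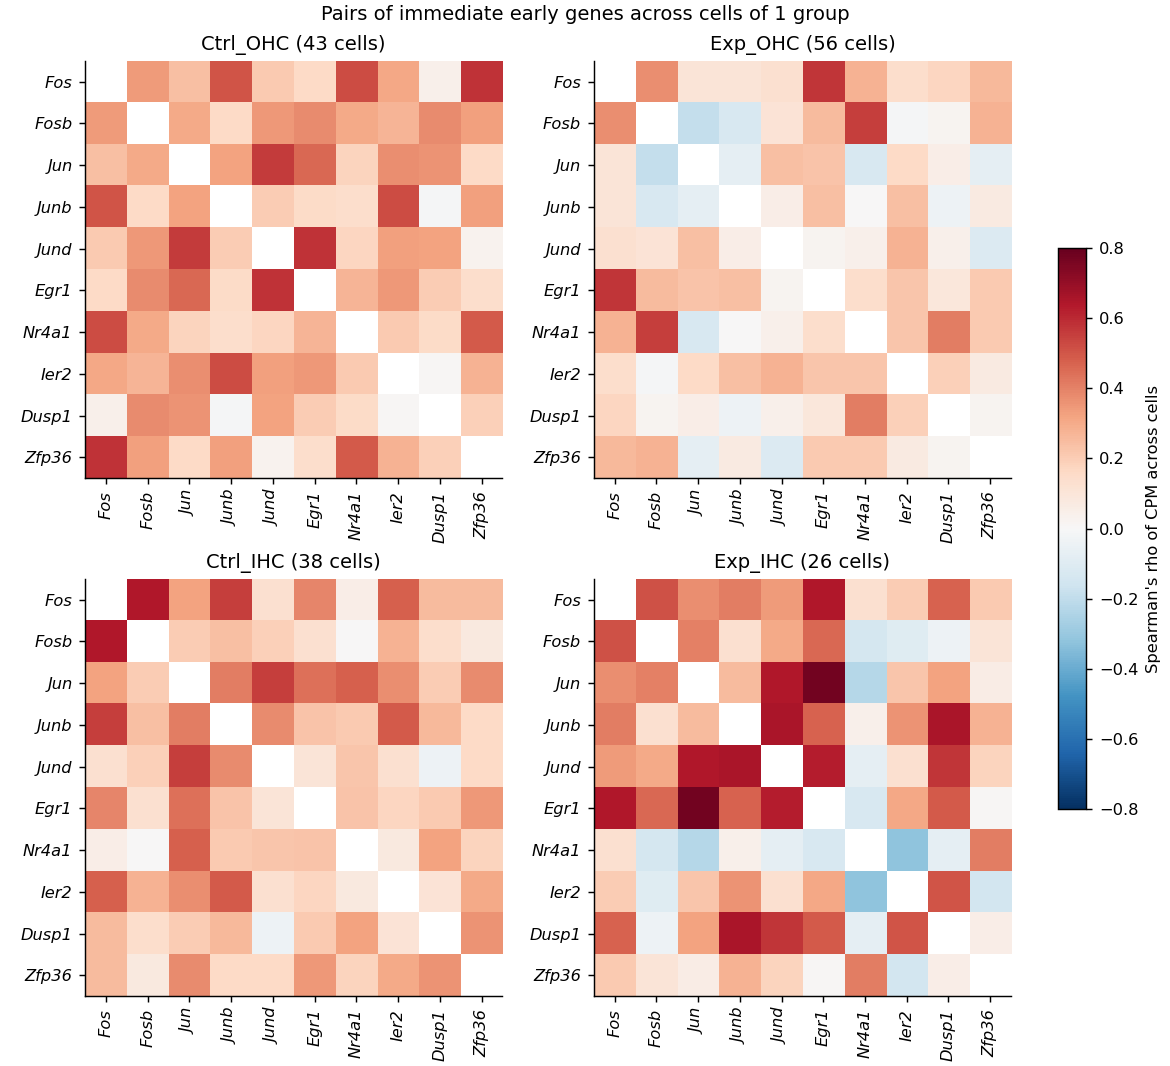
Spearman's rho of CPM between each pair of the 10 genes across the cells of 1 group, from blue (negative) through white to red (positive), with the diagonal left blank. Pairs are mostly positive in controls (44 of 45 in each control group) and more mixed in mutants (36 of 45), and the highest value is that of Jun with Egr1 in mutant IHCs, at 0.77.

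The gene whose levels most resembled the members was Btg2, an antiproliferative gene of the same early response. Likeness was the rho of a gene with the mean of the 10 members over the cells of a group, averaged over the 4 groups, for 7584 genes. Btg2 had a mean rho of 0.47 (0.58 in control OHCs, 0.47 in mutant OHCs, 0.42 in control IHCs and 0.42 in mutant IHCs), ahead of Tmbim1 at 0.36 and Sh3rf2 at 0.34. The 95th percentile of all ranked genes was 0.16. Btg2 also ran from 0.134 to 559 CPM (median 164) in control OHCs, 33.9 to 1385 (469) in mutant OHCs, 109.6 to 754 (309) in control IHCs and 130.0 to 1317 (541) in mutant IHCs. It was higher in mutant cells in each set by sex and Gm15772, at 605 against 129 CPM in low and 423 against 261 CPM in high OHCs. Pdzd8, at -0.29, was least alike.

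Of a list of 45 further immediate early genes, 35 were measured at 1 CPM in OHCs, and 12 (34.3%) were 2-fold or more higher and 3 (8.57%) lower in mutants, beside 18.4% and 13.1% of all genes, with a median log2 ratio of 0.80. Klf10, a zinc finger repressor, was at 7.71 CPM in control and 25.8 CPM in mutant OHCs, and Crem, which encodes cAMP-responsive activators and repressors, at 20.9 and 6.47 CPM. In IHCs 31 were measured, with 9 (29.0%) higher and 5 (16.1%) lower, beside 18.8% and 11.7% of all genes, and a median of 0.45. Gadd45g, a stress sensor of growth arrest, stood at 6.94 CPM in control and 56.8 CPM in mutant IHCs, with 6.59 and 11.5 CPM in cells with Y-linked transcripts and 7.87 and 74.1 CPM in cells with Xist. Gadd45b was at 12.6 and 48.2 CPM. Of control OHC Gadd45b counts 97.2% came from 1 cell.

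Upstream of the members, genes of serum response, CREB and MAPK signalling did not differ in one direction. In OHCs 27 of 28 were measured, with 5 (18.5%) higher and 3 (11.1%) lower past 2-fold and a median of -0.35, and in IHCs all 28, with 3 (10.7%) higher, 3 (10.7%) lower and a median of -0.09. These shares lay near or below the 18.4% and 13.1% of all genes in OHCs and the 18.8% and 11.7% in IHCs. Mapk10 encodes JNK3, a kinase that phosphorylates Jun. It had 48 counts in all control OHCs (0.120 CPM, highest cell 4.48) and 41.4 CPM in mutant OHCs, where 28 of 56 cells held 10 CPM or more (range 0 to 314, median 10.0). In IHCs it went from 20.1 CPM (0 to 171, median 0) to 69.7 CPM (0 to 299.7, median 46.3). Mapk10 was higher in mutants of both types within each sex and each Gm15772 set, the control OHC sets lying between 0.0119 and 0.292 CPM and the mutant OHC sets between 41.2 and 45.1 CPM. Rps6ka2, a ribosomal S6 kinase, was at 34.4 CPM in control IHCs, 3.97 CPM in mutant IHCs and under 1 CPM in both OHC groups. Serum response factor itself (Srf, named for its role and not for its values) was at 7.56 and 10.8 CPM in control and mutant OHCs and at 6.70 and 4.23 CPM in control and mutant IHCs.

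Feedback regulators of MAPK signalling were split as well. Of 14, 10 were measured in OHCs (3 higher, 2 lower past 2-fold, median 0.73) and 11 in IHCs (3 higher, 3 lower, median 0.23), beside the same all-gene shares of 18.4% and 13.1% in OHCs and 18.8% and 11.7% in IHCs. Spred1, an inhibitor of Ras signalling, was lower in mutants of both types, at 19.4 against 4.65 CPM in OHCs and 28.8 against 3.73 CPM in IHCs, in every sex and Gm15772 set. Dusp10, a phosphatase of JNK and p38 kinases, was at 3.09 CPM in control and 23.7 CPM in mutant IHCs, and at 24.9 and 42.7 CPM in control and mutant OHCs. Heat shock genes known to follow dissociation had 13 of 14 measured in OHCs, with none higher and 2 lower past 2-fold and a median of -0.54, and 13 in IHCs, with none higher, 3 lower and a median of -0.31. The 2 and 3 lower genes were 15.4% and 23.1% of those measured, beside 13.1% and 11.7% of all genes. Over all cells the members and the heat shock genes differed in the sign of their median ratio. Across the cells of a group their mean levels had rank correlations of 0.42 and 0.17 in control and mutant OHCs. In control and mutant IHCs the correlations were 0.28 and 0.05. Within the sets by sex and Gm15772 the member median changed sign in OHCs, and the heat shock median was not computed there. Any relation to dissociation was not tested.

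Depth and RNA measures had weak rank relations to the members within a group. The rank correlation between the mean level of the 10 and total counts was -0.13, 0.22, 0.03 and 0.10 in control OHCs, mutant OHCs, control IHCs and mutant IHCs. With the mitochondrial share it was -0.37, 0.02, -0.33 and 0.12. Between groups, the mitochondrial share moved with genotype, with medians of 6.04% and 4.36% in control and mutant OHCs and 7.52% and 4.77% in control and mutant IHCs, and its part in the ratios was not tested. When each cell was thinned to the shallowest cell's 5.47e+06 counts, 37 of the 40 shares of cells at 10 CPM were the same and the largest change was 2.60 percentage points. A single count was then 0.183 CPM, so only cells near 10 CPM could change. Thinning of reads cannot show molecules lost before sequencing.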

How the data were processed

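The authors deposited raw read counts per gene and cell. The submitters' processing notes name mm10 as the build, and HISAT2 2.2.1, featureCounts 2.0.1 and SAMtools as the tools. The annotation release and strand setting are not given in the sources used here. Gene names and positions came from the GENCODE annotation of GRCm38, which is the same build. For each group, the counts of its cells were added and scaled to CPM, with exact Poisson intervals. Ratios have exact conditional binomial intervals (95%, scipy 1.17.1), and all intervals cover counting error only. For levels and ratios this is the counting error of reads and not of molecules, since the reads carry no molecular identifiers. Groups with 1 sample each allow no test. A sum of 0 was set to a floor of 3 counts in a ratio, which then is a bound and enters a list's median as such. Cells with Y-linked transcripts had these and not Xist at 10 CPM, and the reverse held for cells with Xist. The low Gm15772 set was below 40 CPM. Named genes outside the 10 were, per list and comparison, up to 5 with the largest ratio past 2-fold at a mean of 10 CPM or more, of which a part is printed. The ratio code was tested on simulated counts. Alternatives included the TMM factors of edgeR 4.0.16 and sets of cells. The members, lists and sets were chosen with earlier results of these data known. Doublets were not called.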

Additional observations from a re-analysis of the deposited data

How the results depend on the processing

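For the 4 group comparisons, 10 alternatives were run: TMM factors, the mean of the cells, leaving out the highest cell of each gene in each group, totals without mitochondrial genes, cells in a middle band of depth, cells with few supporting cell markers, and the 4 sets by sex and Gm15772. The number of members 2-fold or more higher in mutant OHCs, 2 in all cells, was 5 in cells low in Gm15772 and 1 in cells high in it. In IHCs it was 5 in all cells and 2 in cells with Y-linked transcripts. Zfp36 turned to a log2 ratio of -0.41 in OHCs with Y-linked transcripts. The median rho of the 45 pairs in control OHCs, 0.30, was 0.16 in cells low and 0.41 in cells high in Gm15772. Scaling alone (TMM factors or totals without mitochondrial genes) changed no member's sign in either genotype comparison. Leaving out the highest cells turned Nr4a1 negative in OHCs. With a minimum of 10 CPM in place of 1 CPM, 11.8% of genes in OHCs and 11.1% in IHCs were 2-fold higher in mutants, and with no minimum 26.0% and 22.8%. No paired analysis was possible because the cells carry no label that pairs them across groups and each group is 1 sample. Depth gave counting intervals far narrower than the spread of cells.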
